A study of Homo sapiens with 6 samples.

Results

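The regions described here are 897 broad TEAD binding sites of the human cell line CCLP1 at which neither of the YAP libraries had a peak. They were taken from the 9321 peaks of the TEAD ChIP-seq library, and conditions on position, width, spacing and overlap were applied in turn. First, 8989 peaks lay on chromosomes 1 to 22. Of these, 8489 were more than 2 Mb away from every stretch of over 2.5 Mb that held no peak in any of the 3 lists, and these are the kept TEAD peaks below. Next, 1971 of the kept peaks were 300 to 1000 bp wide, against 6476 that were narrower and 42 that were wider. Last, 1150 of the 1971 belonged to no run of 3 or more TEAD peaks spaced by at most 12500 bp, and 897 of the 1150 shared no base with a YAP peak or with a peak of the YAP mutant YAP5SA. Among all kept TEAD peaks, 93% shared no base with either kind of peak. Width, spacing and overlap chose these sites, so those values describe them and support nothing.

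TEAD proteins are the sequence-specific DNA-binding factors at the end of the Hippo pathway. YAP has no DNA-binding domain of its own and reaches chromatin mainly through TEAD. When the pathway is active, the LATS kinases phosphorylate YAP and it is held in the cytoplasm or degraded. TEAD can then stay on chromatin with other cofactors, among them the VGLL proteins, some of which compete with YAP for the same surface. In epithelial tumour cells most TEAD sites are known to lie in distal enhancers, often beside AP-1 sites.

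CCLP1 is an established line derived from a human bile duct carcinoma. The TEAD library was made with a TEAD antibody, which the series' design text gives as one against TEAD1. It was compared with a library made with a YAP antibody and with one labelled Flag-Bio-YAP5SA, a tagged YAP in which serines phosphorylated by LATS are replaced by alanine. The design text names several YAP runs made with different antibodies, and which of them the YAP list comes from was not established, so every YAP value below rests on 1 unidentified run. Each of the 3 groups is 1 library of the same cell line, and the labels name no treatment, clone or expression level for the tagged protein. Libraries of an unrelated IgG, of input DNA and of BirA, the control of the tagged protein, complete the 6 and were not used here. With 1 library per group no value below has a replicate check, and no test was made. Read depth is unknown from peak lists.

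The description of these sites as broad, lone and without YAP signal holds only in part. A width of at least 300 bp is broad for this library, whose median peak was 214 bp wide. Lone means outside a run of 3 or more, and 326 of the 897 sites had exactly 1 other TEAD peak within 12500 bp. The absence of YAP is the absence of a listed peak, and signal below the threshold of the peak caller, which gave no score under 50, cannot be seen in these files. The genomic sequence of the peaks in their own build was not used here, so the sites carry no gene, promoter or motif assignment and no sequence is shown.

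The strongest of these sites ranked among the strongest listed TEAD peaks. The highest score, 1946, belonged to a 707 bp peak at chr12:69001385-69002091 in hg19, number 29 of the 9321 TEAD peaks by score. Its nearest YAP5SA peak lay 108670 bp away with a score of 51.6, and its nearest YAP peak lay 492000 bp away with a score of 57.7. The second site, chr8:38895512-38896060, was 549 bp wide and scored 1759. It lay 36052 bp from the nearest YAP5SA peak and 301018 bp from the nearest YAP peak. The third, chr7:80740599-80741474, scored 1471 over 876 bp and lay 21908 bp from a YAP5SA peak. These 3 sites are thus strong TEAD peaks with no listed YAP or YAP5SA peak within 20 kb.

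The next sites by score were chr18:8890748-8891362 with a score of 1465 and chr6:12348710-12349335 with 1415. They were followed by chr12:39999745-40000248 with 1179 and chr17:58219504-58219956 with 1173. The last of the 10 were chr5:159510109-159510875 with 1093, chr9:18263250-18263896 with 1055 and chr12:76371659-76372465 with 1020. No other site of the 897 scored 1000 or more. Across these 10 sites the nearest YAP5SA peak lay between 21908 and 260196 bp away, and the nearest YAP peak between 58552 and 493483 bp away. The YAP5SA peaks in question scored 50.1 to 90.2 and the YAP peaks 50.5 to 67.2, while the medians of their lists on chromosomes 1 to 22 were 57.0 and 57.7. In 7 of the 10 another TEAD peak lay within 12500 bp.

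At the other end were sites barely above the threshold of the list. The lowest score was 50.2, at chr16:32838895-32839460, a peak 566 bp wide with a YAP peak 2911 bp away. The sites chr17:40162267-40162591 and chr5:14139263-14139563 scored 50.4 and 51.1. The 897 sites therefore ran from the bottom of the TEAD list almost to its top. On each of the 22 chromosomes the highest-scoring site scored between 542 and 1946.

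The median score of the 897 sites was 203 (95% interval of the median 192 to 214; interquartile range 132 to 319). Scores under 100 were listed for 135 sites (15.1%), and scores of 500 or more for 93 sites (10.4%). The median width was 363 bp (interquartile range 324 to 423). Widths under 350 bp were found for 376 sites (41.9%), and widths of 600 bp or more for 51 (5.69%). Score and width rose together, with a Spearman correlation of 0.47 across the 897 sites. Both values come from the same reads of 1 library, so this is a description. Median scores by width were 161 at 300 to under 350 bp, 209 at 350 to under 400 bp, 284 at 400 to under 500 bp, 302 at 500 to under 600 bp and 605 from 600 bp upward.

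**Figure D1:**
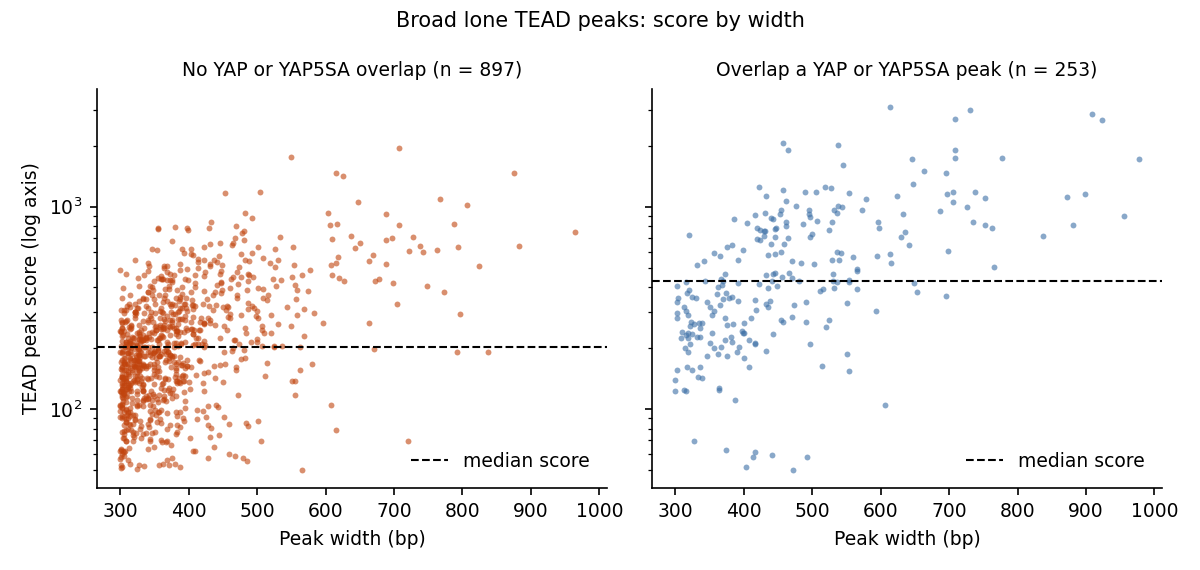
TEAD peak score (log axis) against peak width in bp for broad lone TEAD peaks, with the 897 that overlap no YAP or YAP5SA peak on the left and the 253 that overlap one on the right. Each point is a peak and the dashed line is the median score, 203 on the left and 427 on the right; scores climb with width in both panels.

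The limit of 300 bp does not mark a break in the data. Sites of 300 to under 310 bp numbered 118 and had a median score of 134, while the 99 TEAD peaks of 290 to under 300 bp that met every other condition had a median of 132. The 3 peaks just inside were 300 bp wide, at chr1:198816917-198817216, chr10:35589056-35589355 and chr15:39873078-39873377, and scored 140, 123 and 56.3. They are the first by position of 11 sites of exactly 300 bp. The 3 just outside were 299 bp wide and scored 81.4, 193 and 172. At the upper limit the widest sites measured 964 bp at chr22:30017655-30018618 with a score of 753, 882 bp at chr12:13250953-13251834 with 640, and 876 bp at the chromosome 7 site with 1471. Only 2 otherwise eligible peaks exceeded 1000 bp. They measured 1004 bp with a score of 793 and 1012 bp with a score of 1202. For overlap, the smallest shared stretch among the 253 peaks left out was 19 bp with YAP and 37 bp with YAP5SA, and the nearest gaps among the 897 were 113 bp and 43 bp.

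The closest comparison is with the other broad lone TEAD peaks, the 253 that did overlap a YAP or YAP5SA peak. The 897 sites had a median score of 203, against 427 for the 253 (interquartile range 263 to 812). Their median width was 363 bp, against 441 bp. The 253 comprised 186 peaks that met only YAP5SA, 37 that met both and 30 that met only YAP, so the tagged mutant accounted for 223 of them. Median scores were 407 for peaks at YAP5SA alone, 958 for peaks at both and 269 for peaks at YAP alone. The lower scores of the 897 were present at equal width too: at 300 to under 350 bp the medians were 161 and 250, and at 500 to 1000 bp 427 and 815.

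Sites without a YAP partner made up most of the weak broad peaks and a minority of the strongest. With a score under 100, 135 of 143 broad lone TEAD peaks were free of overlap (94.4%, 95% interval 89.3 to 97.6). The shares were 92.3% of 326 peaks at scores of 100 to under 200, 81.5% of 254 at 200 to under 300, and 72.5% of 222 at 300 to under 500. From 500 to under 1000 they came to 52.5% of 158 (44.4 to 60.5), and from 1000 upward to 21.3% of 47 (10.7 to 35.7). Among all kept TEAD peaks, of any width and spacing, 93% were free of overlap. The groups scoring under 200 thus stood near the whole list, and the higher-scoring groups stood below it. Overlap with YAP5SA went the opposite way, with 0 of 143 peaks in the weakest group, which allows a share of up to 2.10% (3 counts of the total), and 72.3% in the strongest. This is largely the complement of the shares above, since 223 of the 253 peaks with overlap met YAP5SA, and no separate observation. Overlap with YAP was 5.59% among peaks scoring under 100, where all 8 overlaps were with YAP, then 1.53% and 1.57% in the next 2 groups. It reached 13.3% from 500 and 42.6% from 1000. The intervals count each peak as independent of its neighbours, and counting error is all they cover. Of all 8489 kept TEAD peaks, 897 were such sites. Among the 1000 highest-scoring kept TEAD peaks, 317 belonged to the 897 sites (31.7%), against 8 of the 100 highest-scoring. Of those 100, 49 lay in runs of 3 or more, 12 were wider than 1000 bp and 79 overlapped YAP or YAP5SA. The low number there thus follows in part from the spacing and width conditions and is not a result on overlap alone.

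**Figure D2:**
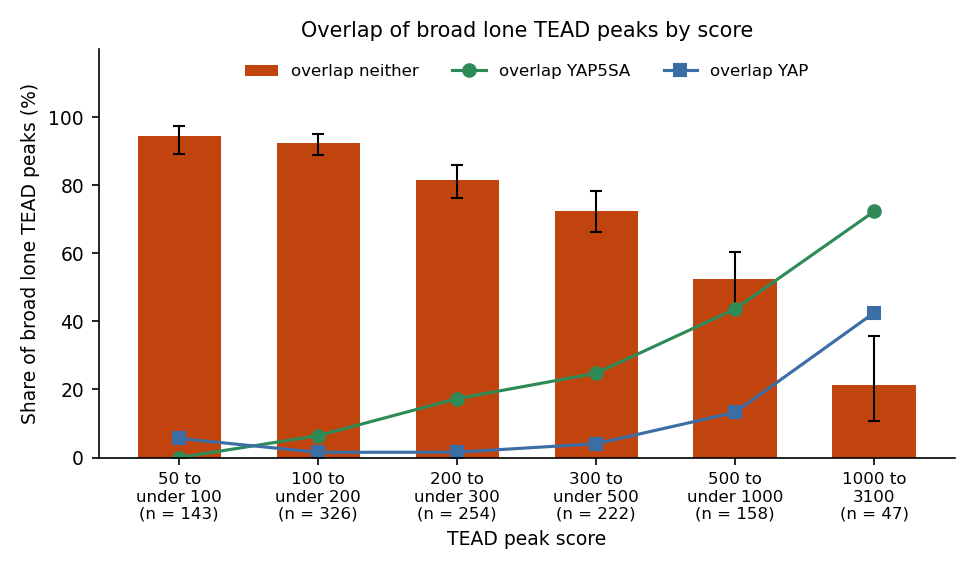
Share of broad lone TEAD peaks, in percent, by TEAD peak score: bars are peaks that overlap neither YAP nor YAP5SA, with exact 95% intervals, and lines are peaks that overlap YAP5SA or YAP. The bars drop to 21.3% in the group scoring 1000 or more, against 94.4% in the group scoring under 100 and 93% of all kept TEAD peaks. Most of the remaining peaks overlap YAP5SA, so its line is largely the complement of the bars.

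A YAP or YAP5SA peak lay within 10 kb of 106 of the 897 sites (11.8%). Of the narrow lone TEAD peaks described below, 7.08% had a YAP5SA peak and 2.77% a YAP peak within 10 kb. A YAP5SA peak lay within 10 kb of 82 of the 897 sites (9.14%, 95% interval 7.34 to 11.2), and within 1 kb of 19 (2.12%, 1.28 to 3.29). A YAP peak lay within 10 kb of 27 sites (3.01%, 1.99 to 4.35), and within 1 kb of 5 (0.557%, 0.181 to 1.30). Both kinds lay within 10 kb at 3 sites. The median distance was 88159 bp to the nearest YAP5SA peak and 267863 bp to the nearest YAP peak. The YAP list is shorter, with 3867 peaks against 9616, so these distances are not comparable with each other. At 314 sites (35.0%) neither kind of peak was present within 100 kb. Their median score was 192, against 213 for the rest.

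These shares were set beside those of the narrow lone TEAD peaks, 4975 peaks under 300 bp chosen by the same conditions otherwise. A YAP5SA peak lay within 1 kb of 2.12% of the broad sites (1.28 to 3.29), against 1.07% of the narrow peaks (0.799 to 1.39). Within 5 kb the shares were 5.57% (4.17 to 7.28) and 3.58% (3.08 to 4.13). Within 10 kb they were 9.14% and 7.08% (6.38 to 7.82), and within 50 kb 33.8% and 32.2%. For YAP the shares within 10 kb were 3.01% and 2.77% (2.34 to 3.27). The broad sites scored far higher, with a median of 203 against 65.4, and 15.1% of them scored under 100 against 85.0% of the narrow peaks. The next comparison is with 666 broad TEAD peaks without overlap inside runs of 3 or more, whose median score was 225 (interquartile range 151 to 368). There the 9.14% of the lone sites stood against 21.0% (18.0 to 24.3) with a YAP5SA peak within 10 kb, and the 3.01% against 12.0% (9.64 to 14.7) with a YAP peak. The lone sites thus had smaller shares with YAP5SA and YAP peaks nearby than the broad peaks in runs. Spacing of TEAD peaks chose both groups, and a peak in a run has other TEAD peaks close by. Those can themselves overlap YAP or YAP5SA, so this order can follow in part from the rule and is a description. Neighbours in a run can share the same YAP5SA or YAP peak, so the intervals for runs are too narrow.

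**Figure D3:**
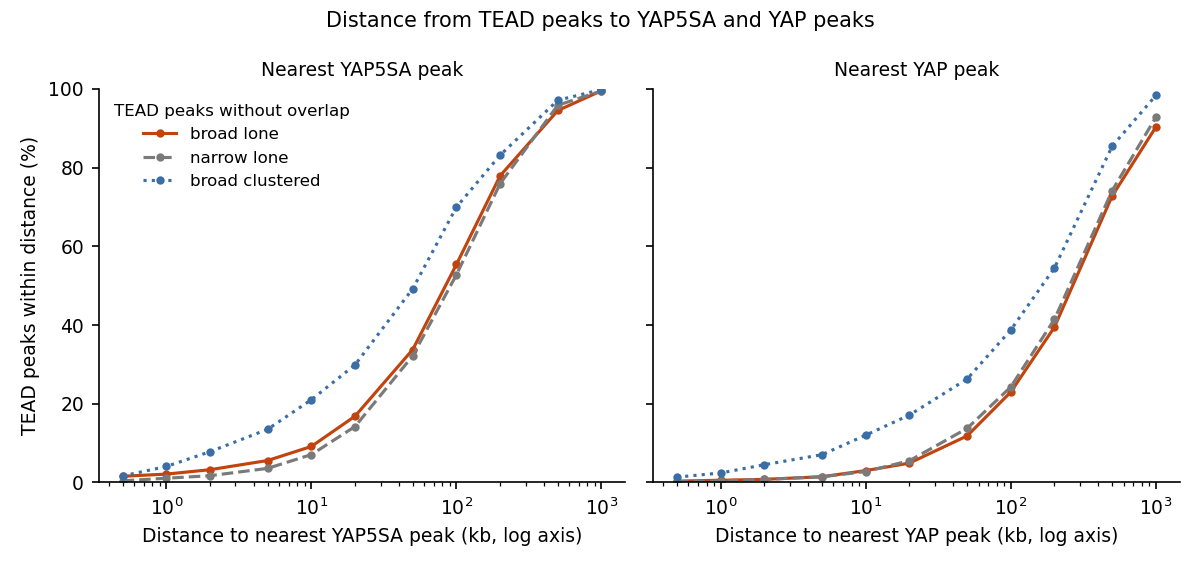
Share of TEAD peaks, in percent, with a YAP5SA peak (left) or a YAP peak (right) within the distance on the x axis (kb, log axis), for broad lone, narrow lone and broad clustered TEAD peaks that overlap neither. For YAP5SA the broad lone peaks lie above the narrow ones at short range, with 5.57% and 3.58% at 5 kb, and near them at 50 kb, with 33.8% and 32.2%; the clustered peaks lie above both, with 13.5% at 5 kb.

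Distance to YAP5SA went with little change in TEAD score. For the 19 sites with a YAP5SA peak within 1 kb the median was 259 (interquartile range 172 to 356), and the 63 sites at 1 to 10 kb had 205. Medians were 204, 201 and 208 at 10 to 50 kb, 50 to 200 kb and beyond. For YAP the 5 sites within 1 kb had a median of 168 and the 22 at 1 to 10 kb one of 142 (114 to 294), against 220 at 10 to 50 kb. The quartile ranges overlap in every one of these groups. The YAP5SA peaks within 1 kb of a site had a median score of 61.7, against 93.6 for the 222 YAP5SA peaks that are nearest to and overlap a broad lone TEAD peak. The median of the whole YAP5SA list on chromosomes 1 to 22 was 57.0. The YAP5SA peaks within 1 kb of these sites thus scored near the median of their list. They scored lower than the YAP5SA peaks that overlap a broad lone TEAD peak. Of the 19 YAP5SA peaks within 1 kb, 9 overlapped another TEAD peak.

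Of the 5 sites nearest to a YAP peak, 3 lay beside another TEAD peak that overlapped YAP, and in 2 of these the other TEAD peak was the stronger one. At chr6:56674834-56675225 (score 168) a TEAD peak scoring 1494 lay 551 bp away and overlapped both a YAP peak and a YAP5SA peak. At chr10:33271330-33271638 (score 137) a TEAD peak scoring 920 lay 546 bp away and overlapped a YAP peak. At chr17:62703176-62703613 (score 380) the neighbouring TEAD peak, 150 bp away, scored only 62.5 and overlapped the YAP peak. The site chr1:45196867-45197174 (score 99.6) lay 113 bp from a YAP peak, the smallest such gap, and chr7:133537879-133538194 (score 176) lay 890 bp from one. Neither had a neighbouring TEAD peak that overlapped YAP.

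For YAP5SA the smallest gap was 43 bp, at chr6:139860824-139861203 (score 143), followed by 87 bp at chr10:59452034-59452376 (score 288). In both cases no other TEAD peak lay within 12500 bp. The next 3 sites each stood beside a TEAD peak that overlapped the YAP5SA peak. They were chr1:214620322-214620760 (score 259, TEAD partner 59 bp away with a score of 399), chr9:42242964-42243303 (score 379, partner 18 bp away with 104) and chr11:27956226-27956646 (score 332, partner 52 bp away with 812). A single bound region that the peak caller split into neighbouring intervals cannot be told apart in these files from adjacent sites.

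Such partners were common. Of the 897 sites, 326 (36.3%, 95% interval 33.2 to 39.6) had 1 other TEAD peak within 12500 bp and 571 had none. The share was 35.2% (29.3 to 41.4) for the 253 broad peaks with overlap and 18.1% (17.01 to 19.2) for the narrow lone peaks. The gap to the partner had a median of 2766 bp (interquartile range 768 to 5558). It was under 1 kb for 99 of the 326 sites (30.4%) and under 250 bp, the fragment length the protocol aimed at, for 46 (14.1%). The 571 sites with no partner were a median of 61727 bp away from the next TEAD peak.

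The partners were of 3 kinds. For 200 sites the partner was under 300 bp wide and free of overlap. In these pairs the sites had a median score of 230 and the partners one of 69.2, and the site scored higher in 185 of 200. Width chose the sites and separates them from these partners, and score goes with width, so this order follows in part from the rule and is a description. Another 90 sites were paired with each other. The closest of these pairs were on chromosome 17, with peaks of 97.1 and 264 that were 6 bp apart (70334923-70335303 and 70335310-70335839), on chromosome 1, with 251 and 686 at 15 bp (83030965-83031280 and 83031296-83031776), and on chromosome 2, with 179 and 341 at 15 bp (168262785-168263098 and 168263114-168263482). The remaining 36 sites had a partner that overlapped YAP5SA (29 sites) or YAP (9 sites), and partners that overlapped both are counted in each. Here the medians stood in the opposite order. The sites had a median score of 190, against 417 for these partners. The partner scored higher in 23 of 36 pairs (63.9%, 46.2 to 79.2), an interval that includes an even split. Overlap separates the sites from these partners, and broad lone peaks with overlap scored higher in general (median 427 against 203). This order therefore also follows in part from the rule and is a description.

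**Figure D4:**
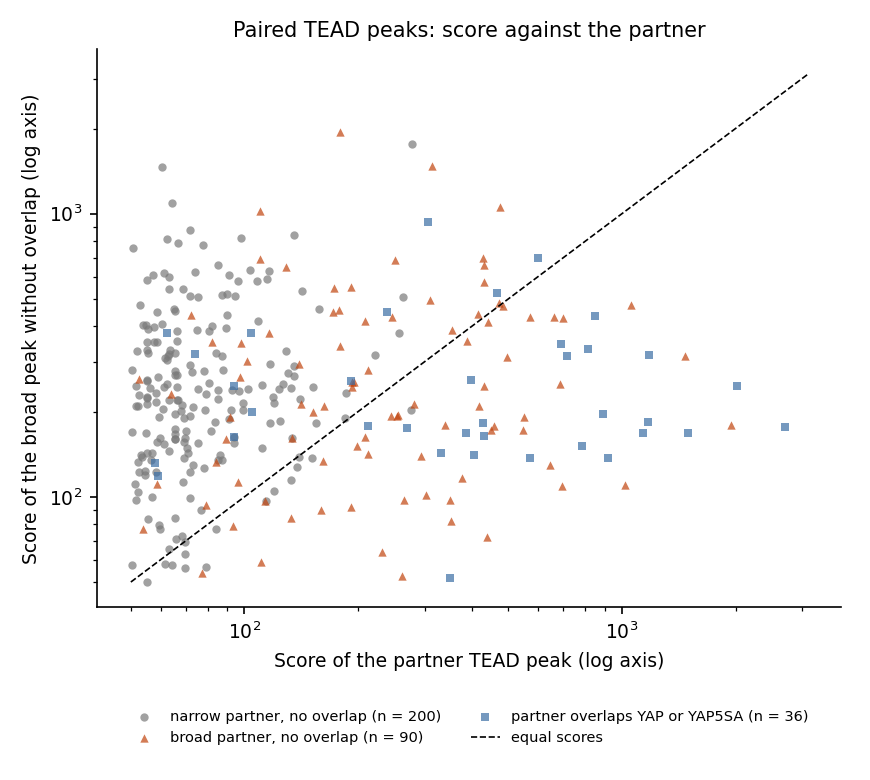
Score of each of the 326 paired broad TEAD peaks without overlap (y axis, log) against the score of the other TEAD peak of its pair (x axis, log), by the kind of partner, with a dashed line at equal scores. Pairs with a narrow partner lie mostly above the line (185 of 200), and 23 of the 36 with a partner that overlaps YAP or YAP5SA lie below it.

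Pairing also went with the presence of YAP5SA nearby. A YAP5SA peak lay within 10 kb of 45 of the 326 paired sites (13.8%, 10.2 to 18.0) and of 37 of the 571 solitary sites (6.48%, 4.60 to 8.82). For 27 of those 45 paired sites this was the YAP5SA peak that overlapped the partner. The rule bars overlap with YAP5SA or YAP at a site but not at its partner. The higher share of paired sites therefore follows in part from the rule and is a description. Among the narrow lone peaks the shares were 9.90% of paired (8.03 to 12.0) and 6.45% of solitary peaks (5.72 to 7.25). The pattern was thus not particular to the broad sites, and solitary broad sites stood close to solitary narrow peaks. For YAP the shares were 4.91% of paired and 1.93% of solitary sites, and at 8 of the 16 paired sites the YAP peak lay at the partner. The paired and solitary narrow peaks stood at 4.12% and 2.48% for YAP. By score, paired sites had a median of 225 and solitary sites one of 190. Of the 224 highest-scoring sites 45.5% were paired (38.9 to 52.3), against 26.2% of the 225 lowest-scoring (20.6 to 32.5).

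All 22 chromosomes carried such sites, and chromosomes 17 and 19 carried many. Chromosome 17 had 82 and chromosome 1 had 81, followed by 69 on chromosome 5. Over all 22 chromosomes the sites were 897 of the 8489 kept TEAD peaks. As a share of the kept TEAD peaks of each chromosome, the sites made up 17.2% on chromosome 19 (13.3 to 21.8), 15.8% on chromosome 17 (12.8 to 19.3) and 15.8% on chromosome 13 (11.2 to 21.4). The sites on chromosome 13 had a median score of 245. The lowest shares were 6.78% on chromosome 10 (4.71 to 9.38) and 7.22% on chromosome 22 (2.95 to 14.3).

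The sites on chromosomes 17 and 19 were wide for their score. Their median score was 139 (interquartile range 90.7 to 225), against 214 (142 to 334) on the other chromosomes, while median widths were 364 and 362 bp. Scores under 100 were listed for 22 of 82 sites on chromosome 17 (26.8%, 17.6 to 37.8), for 22 of 56 on chromosome 19 (39.3%, 26.5 to 53.2) and for 91 of 759 elsewhere (12.0%, 9.76 to 14.5). Broad TEAD peaks in runs on chromosomes 17 and 19 had a median score of 148, against 234 elsewhere, so the lower scores were not particular to lone sites. The narrow lone peaks on chromosomes 17 and 19 were wider than the other narrow peaks, at a median of 210 against 172 bp, and scored 62.8 against 65.5. Both chromosomes are known to be rich in genes, and a link of gene content with these values was not tested.

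**Figure D5:**
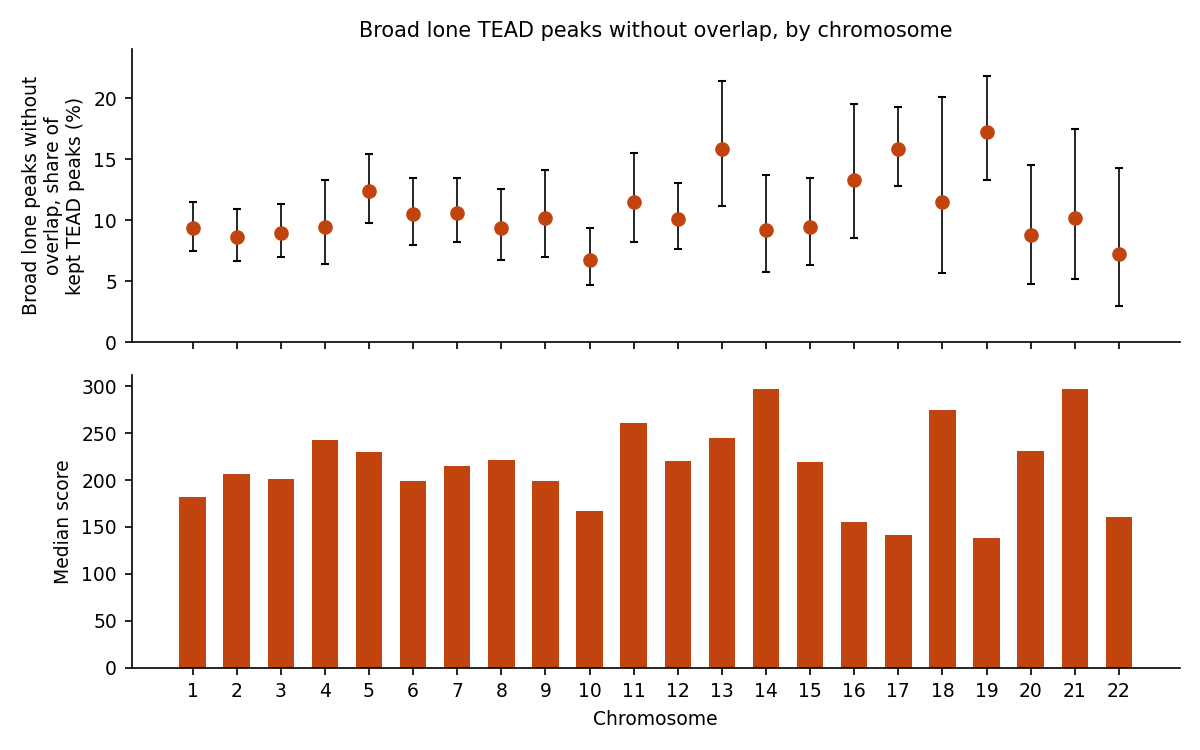
Broad lone TEAD peaks without overlap by chromosome: above, their share of the kept TEAD peaks in percent with exact 95% intervals, and below, their median score. Chromosomes 17 and 19 have shares of 15.8% and 17.2% and the 2 lowest median scores, 142 and 138. Chromosome 13 also has a share of 15.8%, with a median score of 245.

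Within chromosomes the sites were spread thinly. In windows of 5 Mb, 349 of the 567 windows with any peak held at least 1 site, 142 of them exactly 1, and 12 windows held 8 or more. The median distance to the nearest other site was 299664 bp. Among all kept TEAD peaks the sites were 897 of 8489. The first 5 Mb of chromosome 19 held the most, 26 sites among 56 kept TEAD peaks (46.4%, 33.0 to 60.3), with 3 YAP and 9 YAP5SA peaks in the same window. Their scores ran from 62.0 to 354 with a median of 95.3, and 14 of the 26 scored under 100. The window with the next highest number, chr7:80000001-85000000, was of another kind. Its 15 sites scored 135 to 1471 with a median of 314, lay among 106 TEAD peaks and included the third strongest site. None of the 15 scored under 100.

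Of the other windows with 10 or more sites, all 5 lay on chromosome 17. Those from 40000001 to 45000000 and from 45000001 to 50000000 held 14 and 12 sites with median scores of 92.6 and 109. In all, the 12 windows with 8 or more sites held 138 of the 897 sites, with a median score of 146, against 213 elsewhere. YAP5SA peaks lay within 10 kb of 7.25% of the sites in these windows (3.53 to 12.9), against 9.49% of the others (7.50 to 11.8).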

How the data were processed

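ChIP-seq peak lists of the TEAD, YAP and YAP5SA libraries of CCLP1 cells were used, 1 list per library. Per the labels' protocols, cells were fixed for 10 min in 1% formaldehyde and chromatin was sonicated to about 250 bp. Alignment was to hg19 and used Bowtie2, per the submitters' processing notes. The deposited score of each peak runs from 50 to 3100 in every list, and the peak names begin with MACS. From its range the score was taken as a transformed p-value of the caller. Which version, threshold and control the caller used is not given in the sources used here.

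Intervals were read as counted from 0 and are printed counted from 1. The start of 1 TEAD peak, below 0, was set to 0. Distances run from edge to edge, and 1 shared base counts as overlap. Runs were built on the full TEAD list, except in the recomputations with score limits, where they were rebuilt on the reduced list. Shares carry exact Clopper-Pearson 95% intervals and medians exact order-statistic intervals. No test was made. Named regions were the 10 highest- and 3 lowest-scoring, the 3 narrowest and widest with their outer neighbours, the 5 nearest to YAP and to YAP5SA, and the 3 closest pairs. Windows, score groups and the split of chromosomes 17 and 19 were chosen after values were seen. The sites and comparisons were chosen with earlier results of these data known. Overlaps of TEAD peaks with YAP (418) and YAP5SA (512) equalled those of bedtools 2.31.1. On simulated lists, 200 of 200 planted overlaps were recovered among 9321 peaks. Gene, promoter and motif results were not run, since the reference tables are in another build than the peaks. The tools were matplotlib 3.10.9, pandas 2.3.3, scipy 1.17.1 and numpy 2.4.6 under Python 3.11.15.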

Additional observations from a re-analysis of the deposited data

How the results depend on the processing

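Of 95 values recomputed for 7 results, 65 stayed within the 95% interval of the reported value or, for the number of sites, within 1.5 times. Omission of chromosome 1, flanks of 5 Mb, no flanks and widths up to 2000 bp moved none. With a lower width limit of 250 bp there were 1600 sites, with a median score of 142, a median width of 308 bp, 30.9% with another TEAD peak within 12500 bp and 84.9% of broad lone peaks free of overlap. With 400 bp these values were 278, 323, 476 bp, 43.9% and 63.0%. With only TEAD peaks scoring 100 or more there were 1006 sites. Their median score was 234, their median width 370 bp and the share with another TEAD peak 29.3%. With the higher-scoring 50% of each list there were 1056 sites, with a median score of 220. YAP5SA lay within 10 kb of 6.16% and YAP of 1.04%, 32.1% had another TEAD peak and 81.8% of broad lone peaks were free of overlap. Under both score limits the runs were rebuilt on the reduced TEAD list. The numbers of sites and the shares with another TEAD peak follow in part from this. With run distances of 5 kb and 25 kb, 51.3% and 31.5% had another TEAD peak, by the construction of the runs. With no YAP or YAP5SA peak allowed within 1 kb, YAP5SA lay within 10 kb of 7.21%, since this setting removes sites that count as within 10 kb. A changed counting distance changes the shares with a nearby peak by construction. Counted within 5 kb and 50 kb, YAP5SA was near 5.57% and 33.8%, and YAP near 1.45% and 11.8%. Another TEAD peak within 50 kb was found for 64.8%. The next settings were chosen after seeing the data. Sites with no other TEAD peak within 12500 bp numbered 571, with a median score of 190, YAP5SA near 6.48% and YAP near 1.93%. Without chromosomes 17 and 19 no result moved, though the median score of 214 lay exactly at the upper limit of the interval. Median widths under other width limits and median scores under score limits follow in part from those limits. The cause was not tested where none is given. The planned promoter, gene and motif alternatives were not run. No paired analysis was possible because there is 1 library in each group. Unknown read depth limits how many weak YAP and YAP5SA peaks could be listed.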
